A study of Mus musculus with 19 samples.

Results

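Blood leukocytes of DBA/2 mice were compared between 4 w after CAWS administration and 0 w, the time right after the last injection, in 4 arrays of the 19 in the series: replicates 1 and 2 at 4 w and replicates 1 and 2 at 0 w, chosen by their titles. CAWS is the water-soluble fraction that Candida albicans sheds into its culture medium, a mannoprotein and beta-glucan complex that inflames the coronary arteries and aorta of mice. All mice of both groups were male DBA/2 mice and all had received CAWS, given into the peritoneum at 1 mg per mouse on each of 5 consecutive days, so neither group was untreated. The study used mice of 5 to 14 weeks of age and sacrificed 3 survivors per time point, so the 4 w group holds only animals that lived that long, and the labels list 2 biological replicates at each time. The labels name both leukocytes of whole blood caught on a LeukoLOCK filter and mononuclear cells as the source of the RNA, so which preparation the arrays hold is not settled; the RNA was hybridised to 1-colour Agilent arrays. The B6 mice used below for the strain comparison were also male and treated in the same way.

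Mannan and glucan of Candida are read by C-type lectins on myeloid cells, which signal through adaptors that carry ITAM motifs and drive interleukin-1, chemokines and the release of neutrophils from the marrow. Interferons, made by T cells, NK cells and other leukocytes, switch on large sets of antiviral and antigen-processing genes through STAT proteins. Blood leukocyte RNA is a mixture, so a shift in the share of neutrophils, monocytes or lymphocytes and a change of expression within those cells both move a gene's level. In these bulk samples fewer cells of a type and less RNA per cell cannot be told apart.

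The 4 arrays had 34.9% to 51.3% of their 43379 non-control spots well above background, and the array of 4 w replicate 2 had the lowest share. Levels are log2 signals minus the array's 75th percentile over the 11533 probes well above background on every array, so a level of 0 stands for that percentile and a step of 1 for a 2-fold difference. On this scale the arrays of the same time correlated at 0.988 (0 w) and 0.988 (4 w) over probes, and arrays of different times at 0.967 to 0.980. The markers of leukocytes were present: T cell, B cell, NK cell, neutrophil and monocyte markers were measured on every array, except Eomes of the NK cell list, which 1 of 2 arrays detected at each time, and Ly6c2, for which no probe was found. The 3 tested Y-linked genes of the sex check did not pass the test, and Ddx3y was measured on all 4 arrays. Erythroid and platelet markers were also bright. The hepatocyte markers Apoa1, Apoa2 and Ttr did not rise above background in the 4 arrays, whereas in B6 mice at 0 w all 5 hepatocyte markers were measured.

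Between 0 w and 4 w transcripts of myeloid cells showed the largest changes in DBA/2 leukocytes. Transcripts of mature neutrophils, monocytes, Fc receptors and interferon-inducible proteins were higher at 4 w, and those of naive lymphocytes, B cells and ribosomal proteins were lower by smaller amounts. Of 22934 probes tested with limma, 3393 passed a Benjamini-Hochberg adjusted p of 0.05, which is 14.8%. Counted by gene, each through its brightest probe, 1364 of 16520 genes were higher at 4 w (8.26%) and 1277 were lower (7.73%). The rises were the larger changes: 447 of the genes called higher and 203 of those called lower moved by at least 2-fold, and 86 and 24 by at least 4-fold. Over all genes tested the median log2 change was -0.10, with quartiles at -0.34 and 0.16. Of the called probes 51.3% were higher, a share that was 68.7% when the 75th percentile was taken over all non-control probes, 60.9% with the median of each array and 88.7% with normexp background correction, and 46.9% with the replicate block, 45.5% with the slide as a block, 46.4% without 4 w replicate 1 and 48.1% with a floor on the signal.

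The call depends on how the background was taken out. With the normexp correction, which pulls dim probes towards each other, 229 genes were called higher and 29 lower, although 2624 of the 2641 called genes kept their direction. The 4 arrays alone, with 2 samples in each group, gave no call at an adjusted p of 0.05 (0 of the probes, with 4817 at an unadjusted p under 0.05), so the calls rest on the spread shared by all 18 samples. Without 4 w replicate 2 the calls were 961 higher and 440 lower, without 0 w replicate 1 they were 979 and 490, without 0 w replicate 2 they were 832 and 624, and without 4 w replicate 1 they were 855 and 925. The replicates numbered 1 lay on one slide and those numbered 2 on another. All 2640 called genes with a difference on both slides moved in the direction of the call on both. The call rests on the mean of these same 2 differences, so their direction was largely fixed by it and is no separate support.

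**Figure D1:**
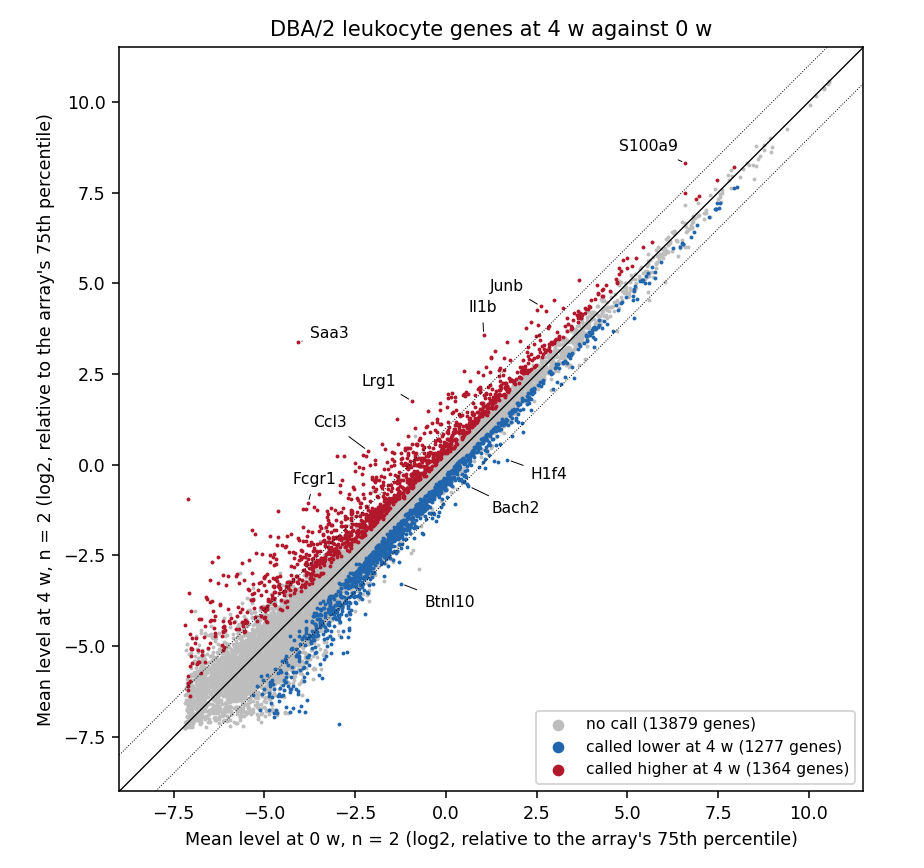
Each point is 1 of 16520 genes, with its mean log2 level at 0 w (x axis) and at 4 w (y axis) over 2 samples, both relative to the array's 75th percentile; red points were called higher (1364 genes), blue points lower (1277 genes), and the dotted lines mark a 2-fold difference. Red points reach farther from the diagonal than blue ones, and 447 red and 203 blue points lie beyond the dotted lines.

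Among genes measured on all 4 arrays, and leaving out the complement and interferon genes that the study itself describes, the largest rise was that of Fcgr1, the high-affinity receptor for IgG on monocytes and macrophages. Its level was -3.79 and -3.80 at 0 w and -1.04 and -1.08 at 4 w, a log2 change of 2.74 (SE 0.10, adjusted p = 1.24e-06), or 6.66-fold. The probe lies at chr3:96368314-96368360 on mm8. The second probe of Fcgr1, which was dim, gave 1.73 and did not pass the test.

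Of the other rises, Il1b, the precursor of interleukin-1 beta, was already bright and went from 1.08 and 1.00 to 3.58 and 3.55, a log2 change of 2.52 (SE 0.08, adjusted p = 1.04e-06). Ccl3, a chemokine for monocytes and T cells, went from -2.06 and -2.24 to 0.47 and 0.30, a change of 2.53 (SE 0.11, adjusted p = 1.86e-06). The choice of these genes required groups that did not overlap. Lrg1, a secreted leucine-rich glycoprotein of neutrophil granules and of the acute phase, stood at -0.93 on both 0 w arrays and at 1.75 on both 4 w arrays, although its spread in the other groups gave the change of 2.68 an SE of 0.43 (adjusted p = 0.0032). Wfdc17, a small whey acidic protein of myeloid cells, went from -1.30 and -1.40 to 1.37 and 1.17, a change of 2.62. Prg4, the lubricating proteoglycan lubricin, went from -2.10 and -2.33 to 0.30 and 0.20, a change of 2.46.

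Genes that macrophages express rose too. C1qc, a chain of C1q that tissue macrophages make, went from -3.88 and -3.12 to -0.82 on both 4 w arrays, a log2 change of 2.68 (SE 0.25, adjusted p = 0.000112). Fn1, fibronectin, went from -3.62 and -4.11 to -1.12 and -1.33, a change of 2.64. With normexp these changes were 1.55 and 1.32 and neither passed the test, while the other 9 rises described here did. In the reported fit the 2 other tested probes of Fn1 gave 1.56 and 2.02, and both passed.

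A further 3 are interferon-stimulated genes outside those the study names. Ifit3, which blocks translation of viral RNA, went from -2.32 and -2.68 to 0.11 and -0.02, a log2 change of 2.54 (SE 0.16, adjusted p = 1.03e-05). Oasl2, of the oligoadenylate synthetase family, went from -2.13 and -2.42 to 0.36 and 0.18, also a change of 2.54. Oas2 went from -3.92 and -3.33 to -1.19 and -1.12, a change of 2.47 (SE 0.51, adjusted p = 0.0112), and did not pass without 0 w replicate 1 (2.17, adjusted p = 0.0795) or without 4 w replicate 2 (2.43, adjusted p = 0.0644). Members of the Ifit and Oas families are similar in sequence, and their probes may share signal.

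Promoters of 4 interferon-inducible genes are shown because most members of their lists, described further on, were higher at 4 w: Ifit3, Gbp2, a guanylate-binding protein, Igtp, an immunity-related GTPase that guards against intracellular pathogens, and Fcgr1, whose product interferon gamma induces on myeloid cells; Igtp was picked after its values and sequence were seen, as it holds both motifs. Each runs from 250 bases before to 50 after the gene's start, 5′ to 3′ on the gene's strand, from RefSeq on GRCm38.p6. Capitals mark the core of the interferon-stimulated response element, TTTCNNTTTC on either strand, and of the gamma-activated site, TTCNNNGAA, which reads alike on both strands. Of 27025 genes with a promoter sequence, 3.99% hold the first and 9.55% the second in at least 1 promoter window.
Ifit3 (chr19:34583279-34583578): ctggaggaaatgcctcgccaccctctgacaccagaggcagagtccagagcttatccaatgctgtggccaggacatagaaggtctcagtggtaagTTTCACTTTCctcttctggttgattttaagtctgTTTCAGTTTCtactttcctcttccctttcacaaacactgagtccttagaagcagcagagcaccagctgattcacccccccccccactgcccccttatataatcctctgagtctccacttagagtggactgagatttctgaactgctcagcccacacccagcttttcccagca
Gbp2 (chr3:142620413-142620712): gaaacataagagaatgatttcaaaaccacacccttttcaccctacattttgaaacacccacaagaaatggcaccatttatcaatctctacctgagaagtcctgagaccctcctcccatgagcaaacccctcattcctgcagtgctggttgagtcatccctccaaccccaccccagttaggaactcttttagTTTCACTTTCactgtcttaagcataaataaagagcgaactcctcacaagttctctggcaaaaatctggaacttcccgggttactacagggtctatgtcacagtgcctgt
Igtp (chr11:58199306-58199605): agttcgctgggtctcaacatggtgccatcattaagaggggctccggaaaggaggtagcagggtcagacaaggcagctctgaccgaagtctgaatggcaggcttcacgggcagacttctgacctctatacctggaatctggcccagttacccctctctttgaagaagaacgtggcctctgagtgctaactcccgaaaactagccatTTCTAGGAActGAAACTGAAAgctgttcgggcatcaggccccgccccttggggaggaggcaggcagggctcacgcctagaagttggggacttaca
Fcgr1 (chr3:96293920-96294219, minus strand): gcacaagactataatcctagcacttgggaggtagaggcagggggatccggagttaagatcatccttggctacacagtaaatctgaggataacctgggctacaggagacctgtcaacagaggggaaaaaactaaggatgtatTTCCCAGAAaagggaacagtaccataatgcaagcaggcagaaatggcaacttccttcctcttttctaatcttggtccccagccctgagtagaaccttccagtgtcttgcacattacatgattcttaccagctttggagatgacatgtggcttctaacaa
The Ifit3 window holds 2 response elements, at -156 to -147 and -122 to -113 from the start, and that of Gbp2 1, at -59 to -50. In Igtp a gamma-activated site at -45 to -37 stands beside a response element at -34 to -25 on the other strand, and in Fcgr1 a gamma-activated site lies at -109 to -101. A match describes these letters and is no evidence of binding.

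**Figure D2:**
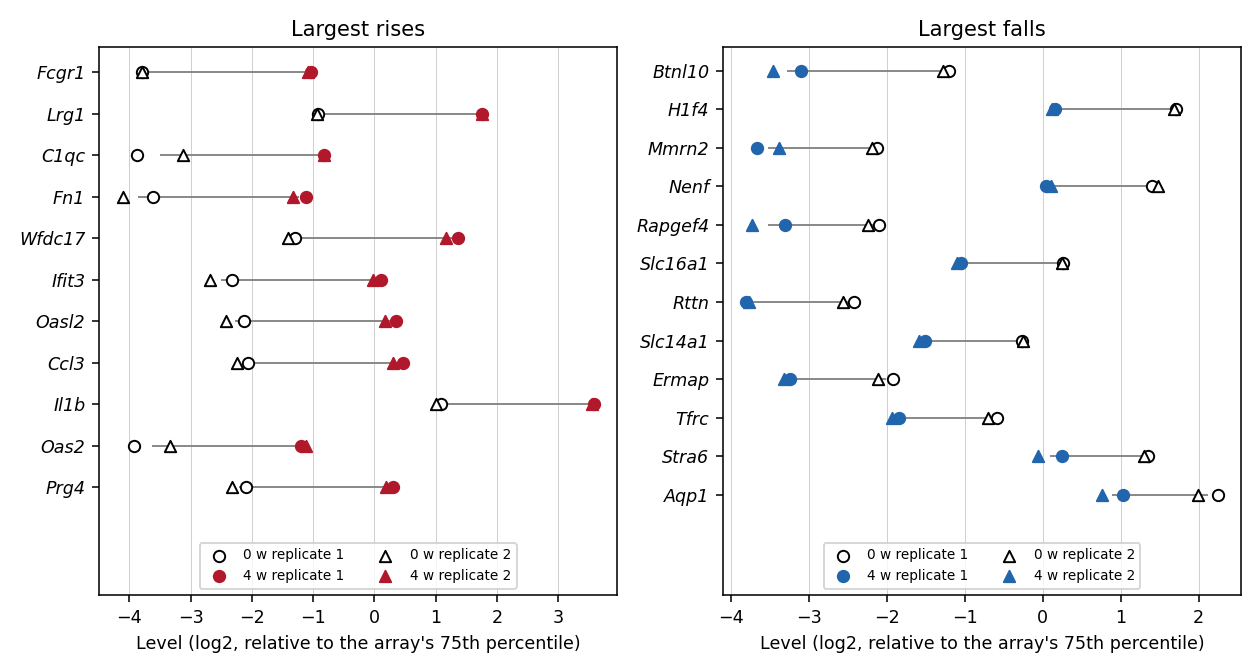
The log2 level of 11 of the 12 largest rises (left) and the 12 largest falls (right) on each of the 4 arrays, with open symbols for 0 w and filled symbols for 4 w and a line between the group means. For all 23 genes the 2 arrays at 4 w lie on one side of the 2 arrays at 0 w, which the choice of genes required, with log2 changes of 2.46 to 2.74 for the rises and of -1.22 to -2.04 for the falls.

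The falls were smaller, and several were genes of red cell precursors. Btnl10, a butyrophilin-like protein, fell most, from -1.20 and -1.28 to -3.09 and -3.46, a log2 change of -2.04 (SE 0.26, adjusted p = 0.00091). Ermap, a membrane protein of erythroid cells that carries a blood group, went from -1.92 and -2.11 to -3.24 and -3.32, a change of -1.27. Tfrc, the transferrin receptor through which dividing cells and erythroblasts take up iron, went from -0.59 and -0.70 to -1.84 and -1.94, a change of -1.24 (SE 0.10, adjusted p = 5.75e-05). Aqp1, the water channel of the red cell membrane, went from 2.24 and 1.99 to 1.03 and 0.75, a change of -1.22. Slc14a1, the urea transporter of red cells, went from -0.26 on both arrays to -1.51 and -1.58, a change of -1.29. Its second probe gave a smaller change of -0.61 and also passed the test.

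The other falls had no common role among the lists used here. H1f4, a linker histone, went from 1.71 and 1.69 to 0.16 and 0.12, a log2 change of -1.56 (SE 0.09, adjusted p = 5.37e-06), but its second, dim probe gave 0.81, the other direction, without passing the test. Nenf, a secreted neurotrophic factor, fell by 1.36 and Slc16a1, a lactate and monocarboxylate transporter, by 1.33 on the log2 scale. The 2 other tested probes of Slc16a1 gave -1.10 and -0.33, and 1 of them passed the test. Mmrn2, an endothelial matrix protein, fell by 1.37, Rapgef4, a cAMP-responsive exchange factor for Rap proteins, by 1.35, Rttn, a centriole protein, by 1.29, and Stra6, a retinol uptake receptor, by 1.23. With normexp, Aqp1, H1f4, Nenf, Slc14a1 and Slc16a1 passed the test and the other 7 falls did not. Ermap lost its call without any of the 4 arrays (-1.17 to -1.37, adjusted p = 0.0641 to 0.1021). Mmrn2 lost it without 0 w replicate 1, without 0 w replicate 2 or without 4 w replicate 1 (-1.23 to -1.40), and Stra6 without 0 w replicate 1 or 4 w replicate 2 (-1.20 and -1.07).

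Another set of genes was measured at one time only. In all, 40 called genes were well above background on both 4 w arrays and on neither 0 w array, and 16 the other way round; for these the fold is a lower bound, taken against the dimmest signal well above background. Ms4a6d, a membrane protein of monocytes and macrophages, was at least 5.43-fold higher at 4 w, Cbr2, a carbonyl reductase of resident macrophages, at least 5.32-fold, and Plxdc2, a plexin domain protein, at least 4.65-fold. Hspa1a, the inducible heat shock protein 70, was at least 4.59-fold higher, at -2.61 and -2.62 at 4 w. Its 2 other tested probes gave log2 changes of 1.20 and 1.92, and 1 of them passed the test. The second probe of Ms4a6d gave 3.66 and passed. Fabp1, the liver fatty acid-binding protein, was at least 5.02-fold higher, at -2.51 and -2.56 at 4 w, and Cfhr2, a factor H-related protein that liver makes, at least 4.52-fold. Both are genes of hepatocytes, and Alb, albumin, was measured at both times at -3.90 and -3.07 (0 w) and -4.64 and -3.18 (4 w) without passing the test.

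In the other direction the bounds were smaller. Enam, which codes for the enamel protein enamelin, was at least 3.98-fold lower at 4 w, but its 0 w arrays differed from each other, at -4.22 and -1.64, and its adjusted p was 0.0484. Grhl2, an epithelial transcription factor, was at least 2.84-fold lower, Smyd5, a SET domain protein, at least 2.13-fold, Vstm2l at least 2.07-fold, Patz1, a zinc finger repressor, at least 2.01-fold and Myom2, a sarcomere protein, at least 1.92-fold. All 6 genes that rose from below background and all 6 that fell below it lost the call with normexp. Leaving out 1 array ended the calls of Enam (without 0 w replicate 2, 4 w replicate 1 or 4 w replicate 2), Grhl2 (0 w replicate 2 or 4 w replicate 2), Patz1 (0 w replicate 2 or either 4 w replicate), Smyd5 and Vstm2l (either 0 w replicate or 4 w replicate 1), with log2 changes of -1.76 to -5.06.

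Cell type markers gave the frame for these changes. The 5 neutrophil markers Csf3r, Cxcr2, S100a8, S100a9 and Mmp9, summed on the linear scale with the array's 75th percentile as 1, came to 105 and 104 at 0 w and 356 and 330 at 4 w, and all 5 passed the test. The 4 monocyte markers measured came to 99.3 and 93.7 at 0 w and 187 and 177 at 4 w. The tissue macrophage markers, of which Vcam1 was not well above background, came to 0.876 and 0.821 at 0 w and 2.53 and 2.22 at 4 w. These myeloid sums had no overlap between the times, but neither did the B cell, plasma cell, T cell, NK cell, platelet and basophil sums given next. The lack of overlap is therefore not particular to myeloid cells. The B cell markers came to 28.2 and 26.4 at 0 w and 19.3 and 18.9 at 4 w, the plasma cell markers to 2.81 and 2.96 and then 1.94 and 2.01, and the T cell markers to 7.90 and 8.01 and then 6.85 and 6.58. The NK cell sum was 2.71 and 2.48 at 0 w and 2.90 and 2.81 at 4 w, the platelet sum 272 and 251 and then 347 and 324, and the basophil sum 0.668 and 0.761 and then 1.02 and 1.03. The erythroid sum, 2097 and 1947 at 0 w and 2110 and 1991 at 4 w, overlapped between the times and was carried by globin signal. A sum is led by its brightest marker and gives no share of cells, and how much of each gene's change goes with these markers was not tested.

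**Figure D3:**
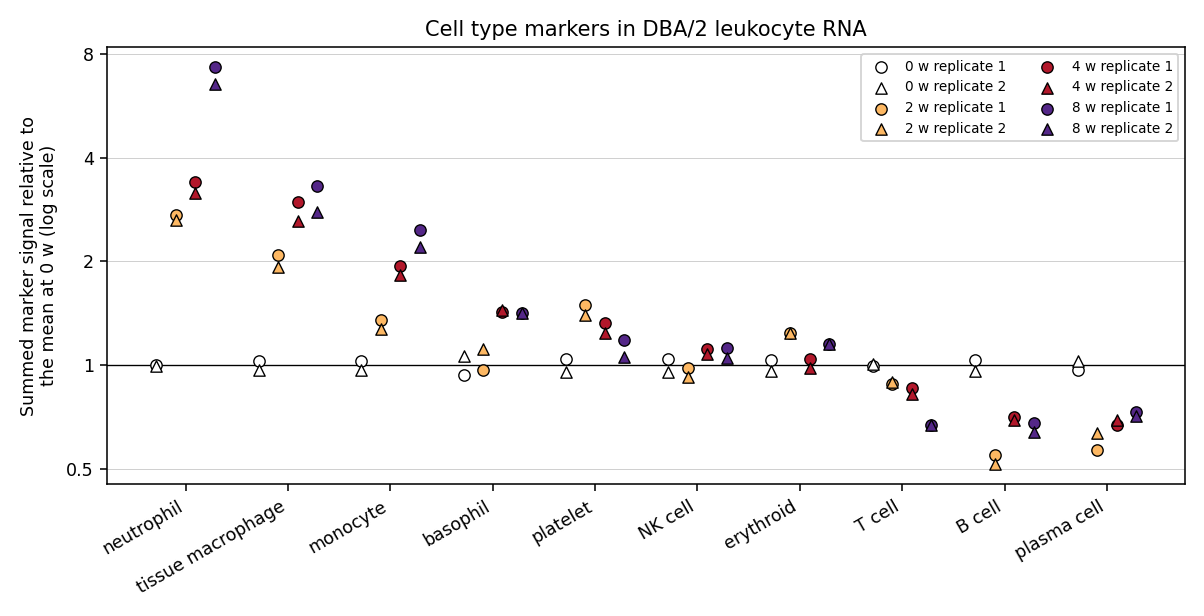
Summed linear signal of the markers of 10 cell types on the DBA/2 arrays at 0, 2, 4 and 8 w, divided by the mean of the 2 arrays at 0 w and drawn on a log2-spaced axis; circles are replicate 1 and triangles replicate 2. At 4 w the neutrophil, tissue macrophage and monocyte sums lie above 1 and the T cell, B cell and plasma cell sums below 1 on both arrays, while the neutrophil sum is highest at 8 w.

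Mature neutrophil and granule genes were higher in most members tested. Of 26 genes of mature neutrophils 24 were higher and 0 lower, with a median log2 change of 1.54 against -0.10 over all genes tested. Il1r2, the decoy receptor for interleukin-1, went from -3.55 and -3.57 to -1.21 and -1.28 (2.31, SE 0.10) and Hdc, which makes histamine, from -1.61 and -1.88 to 0.64 and 0.49 (2.31, SE 0.11). Of 17 secondary and tertiary granule genes 15 were higher, with a median of 1.27, among them Arg2 (2.00), Anxa1 (1.89), S100a8 (1.76) and S100a9 (1.71), the last 2 coding for calprotectin. Chil3 of that list did not pass (-0.20, adjusted p = 0.34). Of 9 primary granule genes, which neutrophil precursors express, 2 were higher and 1 lower, with a median of 0.09: Cd63 rose by 0.91, Mgst2 fell by 0.85, and Mpo and Ctsg, at 0.09 and 0.14, did not pass. The 24 calls among mature neutrophil genes were also 24 without any one of the 4 arrays, and 15 with normexp.

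Monocyte genes were also higher, 21 of 26 in the classical list and 7 of 18 in the nonclassical list. No classical monocyte gene was lower, and the median log2 change of that list was 1.03. Cd14, the co-receptor for lipopolysaccharide, went from -4.47 and -4.35 to -2.19 and -2.27 (2.18, SE 0.14, adjusted p = 9.99e-06), Ccr2, the receptor that brings monocytes out of the marrow, from -0.85 and -0.82 to 0.56 and 0.59 (1.41, SE 0.08), and Csf1r from -2.05 and -2.11 to -0.74 and -0.81 (1.31, SE 0.13). The nonclassical list had 1 gene lower and a median of 0.31; Nr4a1, which those cells need, rose by 0.99, while Cx3cr1 (0.32) and Ace (-0.10) did not pass. Without 0 w replicate 2 or without 4 w replicate 1 the nonclassical list had 2 genes called higher. The difference between the lists was not tested.

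Genes that mark macrophages of the spleen and other tissues were among the larger rises. Of 22 tested, 12 were higher and 0 lower, with a median log2 change of 1.33. Cd5l, a scavenger protein of splenic and liver macrophages, went from -2.74 and -2.59 to -0.75 and -0.88 (1.85, SE 0.46, adjusted p = 0.0262), Slc40a1, the iron exporter ferroportin, from -0.80 and -1.04 to 0.69 and 0.46 (1.49, SE 0.14), and Adgre1, the F4/80 antigen, rose by 1.49. Cd163, the haemoglobin scavenger receptor, was not measured at 0 w and stood at -3.46 and -3.58 at 4 w, at least 2.53-fold higher. C1qb gave -0.10 (SE 0.53, adjusted p = 0.95) on its single probe, whereas C1qa and C1qc rose by 2.71 and 2.68. With normexp the list had 5 genes higher and a median of 0.43.

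Genes of alternative macrophage activation, the programme that interleukin-4 induces, were higher in 7 of 13 tested, with a median log2 change of 1.37; with normexp 2 passed and the median was 0.30. Retnla, a secreted resistin-like protein, went from -2.27 and -2.49 to -0.08 and -0.06 (2.31, SE 0.11, adjusted p = 2.14e-06), and Clec10a, a galactose-binding lectin, from -2.68 and -2.70 to -0.90 and -0.91 (1.79, SE 0.11). Chil4 (0.22) and Egr2 (-0.11) did not pass. Il4 itself, a cytokine of T cells and basophils, was dim and went from -3.98 and -4.12 to -2.58 and -2.66 (1.43, SE 0.10, adjusted p = 2.01e-05). Among 28 genes of basophils, mast cells and eosinophils 9 were higher and 1 lower, with a median of 0.31; Cpa3, a mast cell and basophil protease, rose by 0.70 and Fcer1a by 0.63, Ear1, an eosinophil ribonuclease, fell by 0.86, and the basophil protease Mcpt8 (1.20, SE 0.58) and Prss34 (-0.06) did not pass. That list had 5 genes higher without 0 w replicate 2 or without 4 w replicate 1.

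Receptors that sense immune complexes and fungi were higher in larger shares than the 8.26% over all genes. Of 26 Fc receptor and ITAM adaptor genes 20 were higher and 1 lower, with a median log2 change of 1.28. Tyrobp, the ITAM adaptor DAP12, went from 1.60 and 1.59 to 3.00 and 2.86 (1.33, SE 0.07), Fcgr3 from 0.37 and 0.15 to 1.94 and 1.80 (1.61, SE 0.11), and the inhibitory receptor Lilrb4a from -3.64 and -2.87 to -1.54 and -1.5 (1.74, SE 0.19). Fcer2a, the low-affinity IgE receptor of B cells, was the gene that fell (-0.68). Of 31 pattern recognition genes 17 were higher and 2 lower, with a median of 0.68. Clec4e, the lectin Mincle, went from -2.82 and -3.01 to -0.62 and -0.87 (2.17, SE 0.11), Clec7a, the beta-glucan receptor Dectin-1, from 1.12 and 1.08 to 2.78 and 2.63 (1.60, SE 0.08), and Tlr2 from -2.42 and -2.49 to -0.92 on both arrays (1.53, SE 0.07). Clec4n, which codes for the mannan receptor Dectin-2, was not measured on either 0 w array and on 1 of 2 at 4 w, and its log2 change of 1.71 did not pass. Malt1 (-0.58) and Irak1 (-0.28), downstream signalling proteins, fell, but no gene of the list was called lower without 0 w replicate 1 or without either 4 w replicate (0), and 1 was without 0 w replicate 2. With normexp 11 Fc receptor genes and 6 pattern recognition genes were higher.

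Of 38 genes of the interleukin-1, TNF and NF-kB list 15 were higher and 0 lower, with a median log2 change of 0.27. The rises lay on both sides of the interleukin-1 system: Il1rn, the receptor antagonist, rose by 1.86 and the decoy Il1r2 by 2.31 beside the 2.52 of Il1b. NF-kB subunits and feedback genes did not pass: Nfkb1 was at 0.05, Nfkbia at -0.01 and Tnfaip3 at 0.29. Nlrp3 did not pass either, at 0.11. Among 38 chemokine and receptor genes 16 were higher and 4 lower, with a median of 0.41. Ccl4 went from -2.11 and -1.78 to 0.07 and -0.01 (1.97, SE 0.14), and Cxcr6, a receptor of effector T cells and NKT cells, from -0.45 and -0.56 to 1.5 and 1.44 (1.97, SE 0.12). The 4 that fell were receptors of lymphocyte homing: Ccr6 (-0.60), Ccr9 (-0.50), Ccr7 (-0.40) and Cxcr5 (-0.32). That count of 4 was 3 without 0 w replicate 1, 1 without 0 w replicate 2 and 2 without either 4 w replicate. With normexp 8 chemokine genes were higher and 0 lower, with a median of 0.10.

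Interferon-inducible genes beyond those the study names were higher in 2 lists. Of 30 genes of the interferon-inducible GTPase and type II target list 24 were higher and 0 lower, with a median log2 change of 0.73. Gbp2 went from -1.25 and -1.38 to 0.57 and 0.56 (1.88, SE 0.12, adjusted p = 1.13e-05), Igtp from 2.16 and 2.11 to 2.90 and 2.84 (0.74, SE 0.10), and Irgm1 from -0.83 and -0.87 to -0.19 and -0.30 (0.61, SE 0.09). The times did not overlap for these genes, which were named for called rises or after their values were seen. The chemokines Cxcl9 (1.53) and Cxcl10 (1.59) were called higher but near background: neither was measured at 0 w, and each was on 1 of 2 arrays at 4 w. Of 47 antiviral genes 28 were higher and 1 lower, with a median of 0.68; beside Ifit3 and Oasl2, Isg15 rose by 1.04, Ifitm1 by 1.53 and Bst2, the tetherin that holds virions to the cell, by 1.02, while Rsad2 (0.15), Ifitm3 (-0.09) and Mx2 (0.22) did not pass and Ifi203 fell by 0.69. Of 26 genes of MHC class I and antigen processing 12 were higher and 1 lower, with a median of 0.27: B2m, the light chain of class I, rose by 0.71 (SE 0.08), to 5.74 and 5.66, and H2-D1 rose by 0.66, while Cd1d1 fell by 0.55. With normexp 6 of the GTPase list, 13 of the antiviral list and 0 of the MHC class I list were higher, and the MHC class I list had 6 genes higher without 0 w replicate 2 or without 4 w replicate 1. Probes within the Gbp, H2 and Oas families may share signal.

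Of 22 genes of naive and recirculating lymphocytes 12 were lower and 1 higher, with a median log2 change of -0.43. Bach2, a repressor that keeps lymphocytes from effector fates, went from 0.62 on both arrays to -0.59 on both (-1.21, SE 0.07, adjusted p = 4.51e-06), Dapl1, a marker of naive T cells, from -0.11 and -0.17 to -1.08 and -1.26 (-1.03, SE 0.08), and Lef1 fell by 0.93, S1pr1, the exit receptor of lymph nodes, by 0.67 and Foxo1 by 0.66. Il7r (-0.23) and Klf2 (-0.22) did not pass. Without 0 w replicate 1 or without 4 w replicate 2 the list had 8 genes lower, and with normexp it had 2.

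Of 28 T cell receptor and signalling genes 8 were lower and 2 higher, with a median log2 change of -0.21. Cd8b1 went from 0.53 on both arrays to -0.17 and -0.16 (-0.70, SE 0.08) and Cd6 from 1.87 and 1.98 to 1.31 and 1.24 (-0.65, SE 0.08), while Cd3e (0.03), Lck (-0.02) and Zap70 (0.14) did not pass. In contrast to these receptor genes, 9 of 21 genes of helper and regulatory T cells were higher and 0 lower, with a median of 0.21. Cxcr3, the receptor for interferon-induced chemokines, went from -1.07 and -0.99 to 0.25 and 0.30 (1.31, SE 0.08, adjusted p = 8.05e-06), and Il2rb, Il12rb1 and Tbx21 rose by 1.27, 1.21 and 0.94. The T cell list had 5 genes lower without either 0 w replicate and 4 without 4 w replicate 2. The normexp correction left 1 gene of the T cell list lower and 4 of the helper list higher. Genes of the helper list that define other fates, Gata3 (0.35) and Maf (-0.18), did not pass, and Il10 was detected by 1 of 2 arrays at each time.

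Cytotoxic genes were higher in 12 of 26 tested and lower in 0, with a median log2 change of 0.56. Beside Ccl3 and Ccl4, Fasl, the death ligand, went from -3.43 and -3.66 to -2.32 and -2.48 (1.14, SE 0.12), Gzmb rose by 0.89, Nkg7 by 0.74 and Prf1 by 0.59, and Gzma (0.17) did not pass. Of 34 NK cell genes 11 were higher and 0 lower, with a median of 0.25. Xcl1, lymphotactin, went from -4.07 and -4.25 to -2.34 and -2.53 (1.72, SE 0.21), whereas the NK receptor chain Klrd1 was at 0.99 and 0.88 and then 0.96 and 0.95 (0.02, SE 0.08, adjusted p = 0.92). Tyrobp and Fcer1g, which are on that list, also belong to myeloid cells, and the Klra receptors are near copies of each other whose probes may share signal. With normexp 4 cytotoxic and 3 NK cell genes were higher.

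B cell genes were lower in 15 of 36 and higher in 1, with a median log2 change of -0.33. Fcrla, an intracellular Fc receptor-like protein of B cells, went from 1.14 and 1.15 to 0.38 and 0.39 (-0.75, SE 0.08, adjusted p = 0.000316), Cd79b, a chain of the B cell receptor, from 4.16 and 4.04 to 3.48 and 3.46 (-0.63, SE 0.09), and Cd22 fell by 0.65. Fcgr2b, which myeloid cells also express, was the gene that rose (0.48), and Cd79a (-0.16) and Ighm (-0.33) did not pass. Of 18 MHC class II genes 1 was higher and 3 lower, with a median of -0.19: H2-Oa and H2-DMb2, which act in B cells, fell by 0.72 and 0.54 and the class II transactivator Ciita by 0.49. The class II list had 1 gene lower without 0 w replicate 1 or without 4 w replicate 2 and 5 with the replicate block, and 0 genes higher without 0 w replicate 2 or without either 4 w replicate. Of 24 plasma cell genes 3 were higher and 2 lower; Jchain, which joins secreted antibodies, fell by 0.93 and Mzb1 by 0.52, whereas Xbp1 (0.77), Sdf2l1 (0.92) and Hspa5 (0.60), genes of protein folding in the endoplasmic reticulum, rose. The B cell list had 8 genes lower without 0 w replicate 1 or without 4 w replicate 2. With normexp none of the B cell, class II or plasma cell genes passed the test (0, 0 and 0). Called either way were 22.2% of the class II list and 20.8% of the plasma cell list, against 16.0% over all genes tested.

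Of 17 dendritic cell genes 4 were higher and 3 lower, with a median log2 change of 0.04. Id2, a factor of conventional dendritic cells and of innate lymphocytes, rose by 1.10, and Siglech, a receptor of plasmacytoid dendritic cells, was not measured at 0 w and stood at -5.11 and -3.51 at 4 w, at least 1.47-fold higher (adjusted p = 0.0272). Flt3 (0.19) and Irf8 (0.04) did not pass. The list had 2 genes lower without 0 w replicate 1 and 1 lower without any one of the other 3 arrays, and its median was -0.02 without 0 w replicate 2.

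**Figure D4:**
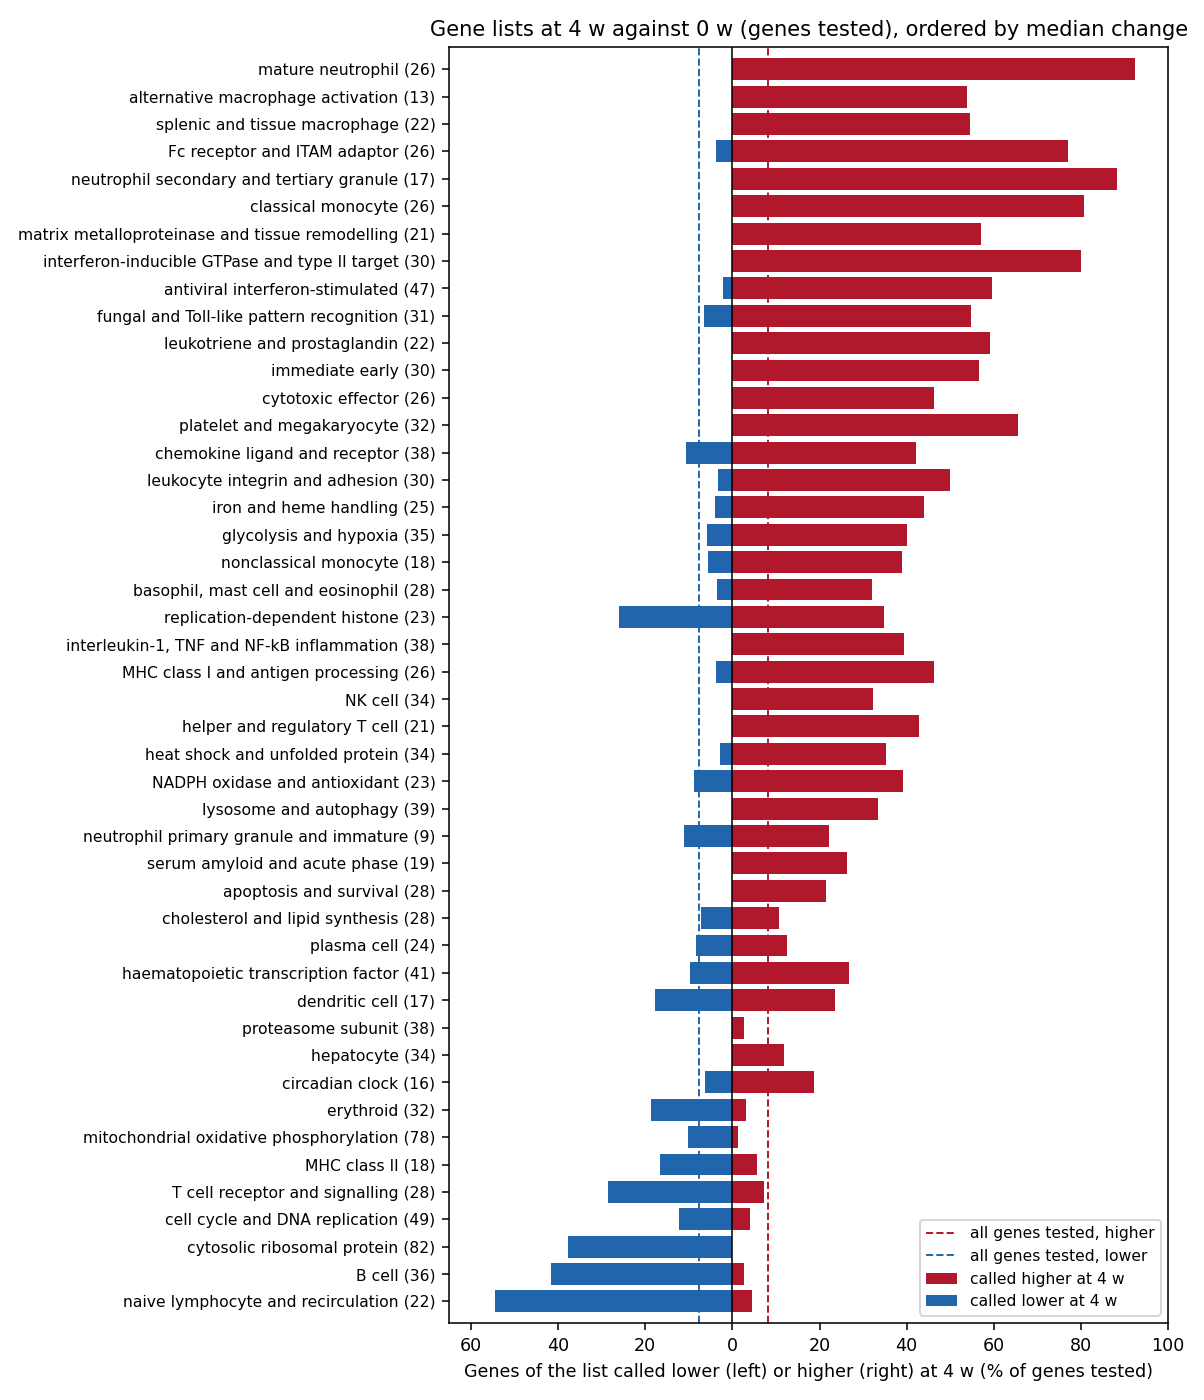
For each of 46 gene lists, with the number of genes tested in brackets, the share called higher (red, to the right) and lower (blue, to the left) at 4 w, in percent of the genes tested, ordered by median log2 change; dashed lines mark the shares over all 16520 genes, 8.26% and 7.73%. Neutrophil, monocyte, Fc receptor and interferon-inducible lists have the largest shares higher, 92.3% and 80.8% in the mature neutrophil and classical monocyte lists, and the naive lymphocyte, B cell and ribosomal lists the lowest medians.

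Of 30 immediate early genes 17 were higher and 0 lower, with a median log2 change of 0.56. Dusp1, a phosphatase that shuts off MAP kinases, went from -0.89 and -0.80 to 1.00 and 1.01 (1.85, SE 0.07, adjusted p = 1.24e-06) and Junb from 2.61 on both arrays to 4.38 and 4.36 (1.76, SE 0.07). Fos, measured on 1 of 2 arrays at 0 w, went from -4.61 and -4.63 to -1.25 and -1.29. In the transcription factor list, with 11 of 41 higher and 4 lower, Cebpd, of granulocyte and acute phase genes, went from 1.39 and 1.35 to 3.09 and 3.16 (1.76, SE 0.08), and the lymphoid factors Id3 (-0.88), Bcl11a (-0.76), Bcl11b (-0.63) and Tcf3 (-0.56) fell. The normexp correction left 7 immediate early and 4 transcription factor genes higher, and 0 of either list lower.

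Of 21 metalloproteinase and remodelling genes 12 were higher and 0 lower, with a median log2 change of 0.82, among them Mmp9, which went from -2.84 and -2.94 to -1.24 and -1.39 (1.58, SE 0.12), and Plaur, the urokinase receptor (0.82). Of 22 leukotriene and prostaglandin genes 13 were higher and 0 lower, with a median of 0.67: Alox5, the 5-lipoxygenase of leukotriene synthesis, went from -1.66 and -1.82 to -0.49 and -0.47 (1.26, SE 0.10), and Pla2g7, which breaks down platelet-activating factor, from -0.43 on both arrays to 0.97 and 0.83 (1.33, SE 0.10). Of 30 adhesion genes 15 were higher and 1 lower, with a median of 0.39; Itgam, the alpha chain of Mac-1, went from -3.01 and -2.78 to -1.48 and -1.69 (1.31, SE 0.12). In the glycolysis and hypoxia list 14 of 35 were higher and 2 lower, with a median of 0.34, led by Pygl, glycogen phosphorylase of liver and myeloid cells, at 0.67 and 0.66 and then 2.32 and 2.31 (1.66, SE 0.07), and the lactate exporter Slc16a3 (1.39). Without 0 w replicate 2 the leukotriene list had 8 genes higher and the adhesion list 9, and without 4 w replicate 1 the leukotriene list had 8 and the glycolysis list 9. With normexp 2 remodelling, 3 leukotriene, 0 adhesion and 3 glycolysis genes were higher.

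Acute phase genes were few in blood RNA. Of 19 tested 5 were higher and 0 lower, with a median log2 change of 0.09, and 8 of them were detected by none of the 4 arrays. Saa3, the serum amyloid A of macrophages and other cells outside liver, had the largest rise of the lists: it was at -3.89 and -4.25 at 0 w, measured on 1 of the 2 arrays, and at 3.38 and 3.37 at 4 w (7.45, SE 0.48, adjusted p = 1.16e-05). Saa1 went from 0.98 and 1.52 to 2.93 and 3.00 (1.72, SE 0.22) and Hp, haptoglobin, from 1.73 and 1.65 to 3.39 and 3.36 (1.69, SE 0.08). Liver genes of the acute phase such as Fga and Hpx were not well above background. Iron genes were higher in 11 of 25 and lower in 1: Trf, transferrin, went from -3.60 and -3.79 to -1.86 and -1.87 (1.83, SE 0.10), Hmox1, haem oxygenase, rose by 1.48 and Tfrc was the gene that fell. Of 34 hepatocyte genes 4 were higher (11.8%, against 8.26% over all genes tested) and 0 lower, with a median of -0.04. Those 4 were Fabp1, Arg1, Trf and Rbp4, of which Rbp4 was detected by 0 and Arg1 by 1 of the 4 arrays. The hepatocyte median was 0.75 without 4 w replicate 1 and -0.47 without 4 w replicate 2, and that of the acute phase list 0.75 and -0.33.

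Of 39 lysosome and autophagy genes 13 were higher and 0 lower, with a median log2 change of 0.17; Ctsl, cathepsin L, went from -2.41 and -2.61 to -0.07 and -0.30 (2.33, SE 0.16) and Nupr1, a stress protein, rose by 1.31. Of 34 heat shock and unfolded protein genes 12 were higher and 1 lower, with a median of 0.21: Hspa8 rose by 0.99 and Ddit4, a stress-induced brake on mTOR, went from 1.86 and 1.79 to 0.83 and 0.73 (-1.05, SE 0.08). Of 23 NADPH oxidase and antioxidant genes 9 were higher and 2 lower, with a median of 0.17, with Prdx5 at 1.12 and Prdx2, abundant in red cells, at -0.46. Of 28 apoptosis genes 6 were higher and 0 lower (median 0.09), led by Pmaip1, the BH3 protein Noxa (1.45). Of 28 cholesterol and lipid genes 3 were higher and 2 lower (median 0.06), with Srebf2 at -0.44, and of 16 clock genes 3 were higher and 1 lower (median -0.09), with Bhlhe40 at 1.5, Nfil3 at 1.36 and Arntl at -0.38. The share of cholesterol and lipid genes called either way, 17.9%, was close to the 16.0% over all genes tested. With normexp 0 genes of the cholesterol and lipid list were higher and 0 lower.

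Platelet genes were higher by small amounts. Of 32 tested 21 passed as higher and 0 lower, with a median log2 change of 0.43, and all 32 were above 0. Selp, P-selectin, went from -2.76 and -2.71 to -1.73 and -1.90 (0.92, SE 0.09) and Treml1 from 4.96 and 4.82 to 5.67 and 5.63 (0.76, SE 0.10), whereas Pf4 went from 6.59 and 6.44 to 6.72 and 6.67 and did not pass (0.18, SE 0.10, adjusted p = 0.31). Without 0 w replicate 1 the list had 13 higher, without 0 w replicate 2 it had 9, without 4 w replicate 1 it had 9, without 4 w replicate 2 it had 11, and with normexp it had 1, at a median of 0.42. Of 32 erythroid genes 1 was higher and 6 lower, with a median of -0.09. Those that fell belong to the red cell membrane or its precursors: Ermap (-1.27), Tfrc (-1.24), Rhd (-0.91), Rhag (-0.70), Slc4a1 (-0.31) and Hemgn (-0.29). Hba-a1 stood at 10.59 and 10.51 and then 10.59 and 10.54, and Alas2 (0.07) did not pass. The erythroid list had 3 genes lower without any one of the 4 arrays.

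Of 82 cytosolic ribosomal protein genes 31 were lower and 0 higher, with a median log2 change of -0.30; Rps19 went from 5.37 and 5.14 to 4.61 and 4.50 (-0.70, SE 0.11, adjusted p = 0.00239) and Rpl22l1 fell by 0.52. That count was 51 with the replicate block, but 14 with quantile normalization, 11 without 0 w replicate 1, 17 without 0 w replicate 2, 19 without 4 w replicate 1, 8 without 4 w replicate 2 and 0 with normexp, and the median stayed between -0.19 and -0.30 under the scalings tried. Of 78 oxidative phosphorylation genes 8 were lower and 1 higher (median -0.11), of 38 proteasome genes 1 was higher and 0 lower (median -0.02), and of 49 cell cycle genes 6 were lower and 2 higher (median -0.25). The share of cell cycle genes called either way, 16.3%, was close to the 16.0% over all genes tested. The shares of the oxidative phosphorylation and proteasome lists were below it. With normexp 1 cell cycle gene and 0 oxidative phosphorylation genes were lower, and 0 of either list higher. Mcm7, of the replicative helicase, went from 0.56 and 0.54 to -0.30 and -0.36 (-0.88, SE 0.08) and Birc5, survivin, from 0.96 and 0.89 to 0.07 and -0.20 (-0.99, SE 0.20), while Mki67 fell by 0.68 and Pcna (-0.04) and Top2a (-0.32) did not pass. Histone genes went both ways, with 8 of 23 higher and 6 lower. Leaving out 1 array took the oxidative phosphorylation genes called lower from 8 to between 1 and 4, and the cell cycle genes called lower to 2 (0 w replicate 1), 3 (0 w replicate 2) and 1 (4 w replicate 2), while the replicate block gave 13 lower in each of these lists. Leaving out 1 array took the histone genes called higher to 4 (4 w replicate 1) or 5 (each other array).

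Whether 4 w stands apart from the weeks around it was asked by comparing 4 w with the mean of 2 w and 8 w. The contrast held no 0 w sample and none of the DBA/2 samples at 9 w. The 4 w samples are shared with the comparison above. Of 16519 genes 482 were higher at 4 w (2.92%) and 510 lower (3.09%). Saa3 led the first group: it was at 0.68 and 0.71 at 2 w, 3.38 and 3.37 at 4 w, and 1.09 and 1.10 at 8 w (2.48, SE 0.42, adjusted p = 0.0086). Ccl3 was at -2.11 and -2.13 at 2 w and -1.37 and -1.61 at 8 w (2.19, SE 0.10, adjusted p = 7.5e-06), and Ccl4 also passed (2.04). Prg4 (2.09), Fn1 (1.92), C1qa (1.86) and C1qc (1.76), genes of macrophages and matrix, were also higher at 4 w than at 2 w and 8 w. So were Asb2, a ubiquitin ligase subunit (2.02), and Socs2, a suppressor of cytokine signals (1.81, adjusted p = 0.0386). Other genes that rose from 0 w to 4 w lay between the weeks around and did not pass this test: Ifit3 was at -0.92 (mean of 2 w) and 0.55 (8 w), and Lrg1 at 1.20 and 2.17. By probe the comparison gave 1290 calls, and 702 without 4 w replicate 1, 326 without 4 w replicate 2, 796 and 797 without 2 w replicates 1 and 2, 820 and 853 without 8 w replicates 1 and 2, and 2141 with the replicate block.

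The genes called lower in that comparison lay below the mean of 2 w and 8 w. Syngr1, a synaptic vesicle protein, stood at 2.37 and 2.43 at 2 w, -2.42 and -2.22 at 4 w, and 1.25 and 1.29 at 8 w (-4.15, SE 0.09), and at -2.41 and -2.25 at 0 w, where it did not differ from 4 w beyond the test (0.01). Mthfd2 (-1.60) and Asns (-1.52), enzymes of mitochondrial folate and asparagine synthesis, and Ddit4 (-1.37) were lower at 4 w than at 2 w and 8 w. Apol11b (-1.5), Apol10a (-1.47) and Apol10b (-1.47), apolipoprotein L genes, were lower at 4 w than at 2 w and 8 w although they had risen from 0 w by 1.54, 1.52 and 1.56, and the neutrophil granule gene Ngp (-1.27), which rose from 0 w by 1.37, stood at -2.49 and -2.53 at 2 w, -2.18 and -2.21 at 4 w, and 0.72 and 0.59 at 8 w, so that its 4 w level lay below that of 8 w alone. Lcn2 (-1.29), another granule gene, was not well above background at 0 w and at least 2.73-fold higher at 4 w than at 0 w. Creb3l3, a transcription factor of liver and gut, changed by -1.26.

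**Figure D5:**
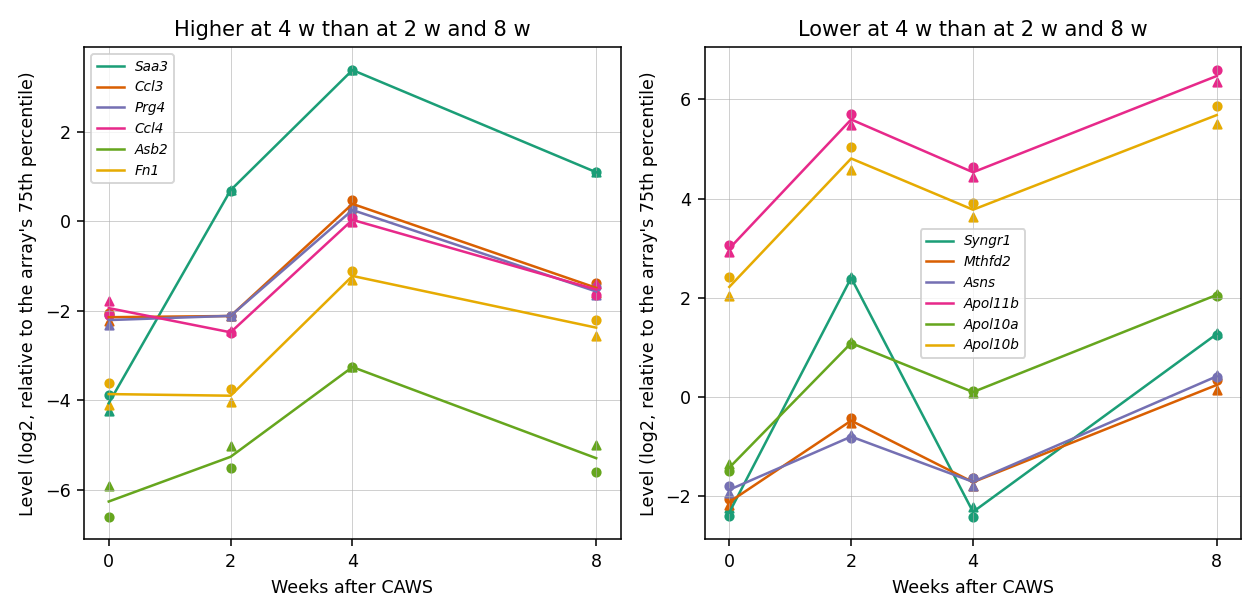
The log2 level on each DBA/2 array at 0, 2, 4 and 8 w of 6 genes among the 10 largest rises (left) and the 6 largest falls (right) at 4 w against the mean of 2 w and 8 w; lines join the means and circles and triangles are replicates 1 and 2. Among the weeks drawn Saa3 is highest at 4 w, at 3.38 and 3.37, and Syngr1 drops from 2.37 and 2.43 at 2 w to -2.42 and -2.22 at 4 w.

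Whether the change from 0 w to 4 w differs from that in B6 mice was tested as the difference between the changes of the strains. Of 16520 genes 1360 were higher (8.23%), meaning that the change was more positive in DBA/2 mice, and 755 lower (4.57%). The log2 difference between 4 w and 0 w for Fcgr1 was -0.02 in B6 mice against 2.74 in DBA/2 mice, a strain difference of 2.76 (SE 0.14, adjusted p = 4.31e-06), and that for Lrg1 was 0.03 against 2.68. The B6 differences alone were not tested. The B6 samples at 0 w held hepatocyte markers, which summed to 33.5 and 32.7 against 0.0453 and 0.0445 at 4 w. This baseline enters every B6 change and strain difference, and the part of that RNA in them was not tested. Ifit3, Oasl2 and Gbp2 gave 0.08, 0.18 and 0.05 in B6 mice, with strain differences of 2.47, 2.36 and 1.83. Il1b was at 1.86 in B6 mice and 2.52 in DBA/2 mice, and the changes differed (0.66, adjusted p = 0.00693). By probe the strain comparison gave 2710 calls, against 1786 without B6 0 w replicate 1 and 109 with normexp.

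A strain difference in either direction passed for 17 of 26 mature neutrophil genes and 9 of 17 secondary and tertiary granule genes. It passed for 9 of 30 immediate early genes, and for 2115 of 16520 genes over all tested. For other neutrophil and immediate early genes no strain difference passed the test. S100a8 gave 1.39 in B6 mice, with a strain difference of 0.37 (adjusted p = 0.051), Arg2 1.90 (0.10, adjusted p = 0.87), Junb 1.59 (0.17, adjusted p = 0.37) and Dusp1 1.71 (0.14, adjusted p = 0.46). Receptors of effector T cells had opposite signs: Cxcr6 gave -1.62 in B6 mice and 1.97 in DBA/2 mice (3.59, adjusted p = 2e-06) and Cxcr3 -1.30 and 1.31 (2.61). The B6 values start from the 0 w samples that held hepatocyte markers, and the part of that RNA in the B6 signs was not tested. Among the falls, Bach2 gave -0.15 in B6 mice (-1.06, adjusted p = 9.5e-05), Tfrc 1.09 (-2.33) and Jchain -0.98 (0.05, adjusted p = 0.92).

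Some genes with a strain difference were measured in B6 mice at 0 w and not at 4 w. The 5 hepatocyte markers summed to 33.5 and 32.7 there, against 0.0453 and 0.0445 in B6 mice at 4 w and 0.104 to 0.323 on the 4 DBA/2 arrays. Fabp1, Cfhr2, C1qc, Retnla, Prg4 and Fn1 were well above background on both B6 samples at 0 w and on neither at 4 w, so the size of their strain differences was not measured. In DBA/2 mice C1qc, Retnla, Prg4 and Fn1 rose by 2.68, 2.31, 2.46 and 2.64. The part of hepatocyte RNA in these strain differences was not tested.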

How the data were processed

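Blood leukocyte RNA was hybridised by the authors to 1-colour Agilent 4x44K mouse arrays, and the deposited files are scanner output of Agilent Feature Extraction 9.5.3.1 per the submitters' processing notes and the file headers, whereas the study's methods name an earlier release. Deposited intensity values are background-subtracted processed signals per spot. Values of the deposited table lay within 1% of the mean processed intensity of the probe. Depth does not apply to arrays, and the number of arrays limits the precision.

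From the deposited intensity, control spots and outlier-flagged spots were dropped, log2 values were averaged by probe, and the array's 75th percentile over the 11533 probes that every one of the 19 arrays detected well above background was subtracted. The 2 arrays of one B6 0 w sample were averaged, which left 18 samples in 10 groups. Probes detected in at least 2 samples (22936) were fitted with limma 3.58.1 (R 4.3.3) with 1 mean per group and no covariate, and p-values were adjusted by Benjamini-Hochberg at 0.05. The fit had 8 residual degrees of freedom. The labels call the replicates biological, and the study's methods describe labelled RNA of individual mice on the arrays. A label of DBA/2 2 w replicate 2, which has 1 array, also reads technical replicate 2. That array was used as biological replicate 2. Nothing says which mouse each array holds, so the p-values measure the spread between these samples. In data simulated for the comparison of 4 w with 0 w, on 21961 probes, 39 of 100 probes changed 2-fold and 69 of 100 changed 4-fold were recovered. Only those probes were changed, and the noise was drawn independently for every sample. In the data 3393 of 22934 probes were called and replicate differences correlated between groups, so these rates need not hold for this comparison.

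A gene was given by its probe with the highest mean level over the 18 samples. Named genes were the 12 largest called rises and falls among genes well above background on all 4 arrays with groups that did not overlap, the 6 largest bounds for genes well above background at one time only, up to 4 members of each list, and the 10 largest differences in each direction for 4 w against 2 w and 8 w. Complement and interferon genes that the study names and probes with no curated symbol were left out of the first 2 sets. Some genes that met these rules are not reported here, although counts and medians include them. Other list members were named after their values were seen. The members and the 47 lists were chosen with earlier results of these data known. The sample numbers were checked for pairing: replicate differences correlated over probes at 0.33 to 0.40 between the DBA/2 groups at 0, 2, 4 and 8 w, and arrays of one number shared a slide. The labels name no shared animal or batch and the comparison has 2 pairs only, so the replicate block is an alternative. Sequences came from RefSeq (GRCm38.p6), and array positions are those of the files (mm8).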

Additional observations from a re-analysis of the deposited data

Results flagged for a closer look

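The change from 0 w to 4 w differed between DBA/2 and B6 mice, by the test of the difference, for 31 of the genes named as the largest rises and falls or as measured at one time only. Each value is a difference of log2 changes, DBA/2 minus B6, and all rest on the B6 samples at 0 w that held hepatocyte markers. For Fabp1, Cfhr2, C1qc, Prg4, Fn1, Plxdc2, Cbr2, Ms4a6d, Hspa1a, Btnl10, Ermap, Vstm2l, Grhl2 and Myom2 neither sample of at least 1 of the 4 groups was well above background, so for these the value includes dim levels and its size was not measured. Macrophage and matrix genes had the more positive change in DBA/2 mice: C1qc (8.06), Prg4 (6.77), Fn1 (6.11), Plxdc2 (4.70), Cbr2 (3.84), Fcgr1 (2.76) and Ms4a6d (1.72). The values of the liver genes Fabp1 (14.51) and Cfhr2 (9.27), which were well above background neither in DBA/2 mice at 0 w nor in B6 mice at 4 w, stood beside hepatocyte markers that summed to 33.5 and 32.7 in B6 mice at 0 w and to 0.0453 and 0.0445 at 4 w, and the part of that RNA in the differences was not tested.

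Genes of inflammation and of the interferon response also differed: Hspa1a (2.79), Lrg1 (2.65), Oas2 (2.61), Ifit3 (2.47), Oasl2 (2.36), Wfdc17 (1.45), Ccl3 (1.22) and Il1b (0.66). Among genes that fell in DBA/2 mice, the membrane and transport genes Ermap (-2.34), Tfrc (-2.33), Btnl10 (-1.93), Slc14a1 (-1.75), Slc16a1 (-1.67) and Aqp1 (-1.63) differed. So did Vstm2l (-4.27), Grhl2 (-3.47), Myom2 (-2.63), Rttn (-2.55), Mmrn2 (-2.0), Rapgef4 (-1.73), H1f4 (-1.67) and Nenf (-1.10).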

How the results depend on the processing

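The number of called probes differed between settings. For 4 w against 0 w (3393 as reported) it was 293 with normexp, 1470 with no filter on dim probes, 1997 with outlier-flagged spots kept, 1999 with the deposited value table, 0 with the 4 arrays alone (4817 at an unadjusted p under 0.05) and 1715 for a 2-fold difference with no test. For 4 w against 2 w and 8 w (1290) the same settings gave 26, 438, 546 and 544, DBA/2 samples alone 496 and the replicate block 2141. For the strain difference (2710) they gave 109, 1235, 1642 and 1642. Leaving out 1 sample gave 1804 to 2307, 326 to 853 and 1786 to 2181 calls. The replicate block gave 4610 calls for 4 w against 0 w and 3961 for the strain difference, within 1.5 times the counts reported. Of the 163 named genes called for 4 w against 0 w, none changed direction, and the calls lost were 104 with normexp, 44 with no filter, 28 with outliers kept, 21 with DBA/2 samples alone, 37 to 40 without 1 array and 0 with the replicate block. The cause of these shifts was not tested. For 40 genes measured at 4 w only and 16 at 0 w only the fold is a bound.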
